A study of Rattus norvegicus with 30 samples.

Results

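Messenger RNA of 27 genes of inhibitory signalling was followed in the dorsal hippocampus of rats. The genes were taken from a list of symbols and comprise 9 GABA-A receptor subunits, 2 GABA-B receptor subunits, 1 postsynaptic scaffold gene, 5 genes of GABA synthesis, vesicle loading, uptake and breakdown, and 10 markers of interneuron types. All 27 had a row among the 17455 genes of the count table, and 26 passed the filter on low counts, as did 12547 genes in all. The exception was Npy. The study compared TgF344-AD rats, named alzheimer in the labels, with wildtype rats, on a standard diet, named chow, or a western diet, in both sexes. TgF344-AD rats carry mutated human transgenes of familial Alzheimer's disease, among them APP, driven by the mouse prion promoter, so the transgenes are expressed broadly and not in a single cell type. The 8 combinations of sex, genotype and diet had 3 or 4 libraries each, 30 in all and 15 per genotype: every male group and both female chow groups had 4, and both female western groups had 3. The labels used here give neither the age of the rats nor the composition or length of the diets. They also name 2 cohorts, of 14 and 16 libraries, and all groups have libraries of both.

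GABA, the main inhibitory transmitter of the adult brain, is made from glutamate by the glutamate decarboxylases, loaded into vesicles, and released largely by local interneurons. It opens GABA-A receptors, chloride channels of 5 subunits assembled from alpha, beta, gamma, delta and other families, and it activates GABA-B receptors, which signal through G proteins and need both of their subunits. Hippocampal interneurons are commonly sorted by the calcium-binding protein, peptide or enzyme they hold. Parvalbumin cells inhibit the soma and axon of pyramidal cells, somatostatin cells their dendrites, and cells with vasoactive intestinal peptide or calretinin mostly other interneurons.

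Promoter sequences are shown for the members with an entry that differed between genotypes (Nos1, Pvalb, Gabra3 and Gabra5), and for Sst, whose level moved with that of Pvalb between libraries once group and cohort means were removed. They come from RefSeq on the rat assembly GRCr8 and run 5′ to 3′ along the gene's own strand, from 250 bases before the listed start to 50 bases from it on. Capitals mark TGACG, the core of the cyclic AMP response element, on either strand (CGTCA on the other). The regions are chr12:44371788-44372087 (minus strand) for Nos1, chr7:111666240-111666539 (minus strand) for Pvalb, chr11:90461296-90461595 (plus strand) for Sst, chrX:155543821-155544120 (minus strand) for Gabra3 and chr1:117516557-117516856 (minus strand) for Gabra5.
Nos1: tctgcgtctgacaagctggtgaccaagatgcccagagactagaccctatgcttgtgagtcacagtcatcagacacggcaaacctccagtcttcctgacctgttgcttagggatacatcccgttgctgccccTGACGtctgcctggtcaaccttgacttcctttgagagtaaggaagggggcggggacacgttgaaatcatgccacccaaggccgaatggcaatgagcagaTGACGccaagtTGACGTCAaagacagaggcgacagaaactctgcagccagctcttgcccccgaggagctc
Pvalb: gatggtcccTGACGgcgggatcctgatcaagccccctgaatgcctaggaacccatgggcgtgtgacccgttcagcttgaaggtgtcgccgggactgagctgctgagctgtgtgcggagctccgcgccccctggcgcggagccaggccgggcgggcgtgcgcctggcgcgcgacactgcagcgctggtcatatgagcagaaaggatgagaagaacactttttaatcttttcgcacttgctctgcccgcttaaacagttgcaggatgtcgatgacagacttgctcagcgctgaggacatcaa
Sst: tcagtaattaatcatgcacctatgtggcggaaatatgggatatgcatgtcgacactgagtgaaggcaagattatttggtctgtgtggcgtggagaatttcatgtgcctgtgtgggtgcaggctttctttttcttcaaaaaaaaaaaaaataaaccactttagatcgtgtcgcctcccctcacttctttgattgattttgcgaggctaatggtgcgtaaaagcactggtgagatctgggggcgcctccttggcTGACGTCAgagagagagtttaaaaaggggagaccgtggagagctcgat
Gabra3: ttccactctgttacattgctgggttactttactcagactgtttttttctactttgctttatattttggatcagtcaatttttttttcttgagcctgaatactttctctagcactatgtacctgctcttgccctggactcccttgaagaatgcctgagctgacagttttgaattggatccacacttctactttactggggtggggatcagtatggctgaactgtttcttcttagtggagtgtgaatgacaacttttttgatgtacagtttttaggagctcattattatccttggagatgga
Gabra5: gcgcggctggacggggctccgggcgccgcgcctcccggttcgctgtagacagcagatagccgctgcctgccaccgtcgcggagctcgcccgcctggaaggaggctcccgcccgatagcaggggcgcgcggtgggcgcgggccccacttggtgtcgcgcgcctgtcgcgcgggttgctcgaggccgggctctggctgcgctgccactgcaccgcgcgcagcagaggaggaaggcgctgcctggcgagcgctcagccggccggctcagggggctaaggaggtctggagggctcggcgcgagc

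A promoter was found for 23 of the 27 members, among 33469 promoters of 300 bases in the table. The full element TGACGTCA, 8 letters that contain the core on both strands, stood in the windows of Sst and Nos1, or 8.7% of the members matched, against 1.83% of all promoters. In Sst it began 2 bases after the listed start, and in Nos1 9 bases before its listed start. Where transcription starts in this tissue was not tested. The core was in 6 members, the other 4 being Vip, Slc32a1, Gabbr2 and Pvalb, or 26.1%, against 21.2% of all promoters. The Nos1 window held 4 cores. The listed Nos1 start lies 84.5 kb inside the gene model, which therefore begins upstream of this window. The listed starts of Pvalb and Gabra5 lie 2.18 and 0.818 kb inside theirs. The 2 alpha subunits printed differ in base composition, with 39.3% G and C in the Gabra3 window and 76.3% in that of Gabra5. These matches describe letters and not binding.

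The median library held 17.8 M counts (M for mega), within a range of 13.9 to 31.4 M. Variation beyond counting, as the common biological coefficient of variation, was 6.27%. The labels do not say in words that each library is a separate animal, so p-values measure the spread between libraries. App checked the genotype labels: it stood at 3294 ± 76.3 CPM (counts scaled to a common library size after TMM normalisation; SD, n = 15) in alzheimer and 1672 ± 52.7 in wildtype libraries, with all 15 alzheimer libraries above every wildtype one. Markers of all neuronal and glial classes examined were present, as dorsal hippocampal tissue holds. Some moved with genotype: the summed CPM of 5 CA1 pyramidal cell markers had a median of 1198 in alzheimer (1027 to 1578) and 1382 in wildtype (1107 to 1515), with Wfs1 and Pou3f1 lower and 1 of the 5 tested above 0. That of 5 dentate granule cell markers had medians of 302.9 (283.5 to 361.3) and 360.8 (305.3 to 390). Of the 3 dentate markers tested, C1ql2 was lower (-0.27), while Prox1 and Pdzd2 were not called (0.15 and -0.052). None of these markers was at 0 across a genotype. Their part in the results on the members was not tested. In tissue, fewer cells of a type and less RNA per cell cannot be told apart.

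Between genotypes, 5 of the 26 members tested changed: Nos1, Gabra3 and Gabra2 were higher in alzheimer libraries, and Pvalb and Gabra5 were lower. That is 19.2% of the members, against 8.03% of all genes tested, of which 4.14% were higher and 3.89% lower (edgeR's quasi-likelihood test, Benjamini-Hochberg adjusted p under 0.05 over all 12547 genes). At an unadjusted p under 0.05 the members numbered 9, or 34.6%, against 22.3% of all genes tested. For the difference between cohorts in the same fit, the unadjusted share was also 34.6% of the members, against 12.6% of all genes tested. The members were chosen with earlier results of these data known, so these shares do not test them as a group. The median log2 fold change, alzheimer over wildtype, was 0.036 over the members and 0.002 over all genes tested, and 16 of the 26 were above 0. Apart from Nos1, no called member differed by more than 0.16 on the log2 scale.

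Nos1, which encodes the neuronal nitric oxide synthase found in several interneuron types, differed most of the called members. On chow, male alzheimer libraries held 24.33, 27.23, 42.97 and 29.9 CPM, and male wildtype libraries 20.76, 23.56, 18.85 and 18.84. On the western diet, male alzheimer libraries held 22, 24.95, 32.61 and 27.06 CPM, and male wildtype libraries 17.15, 15.61, 30.8 and 18.69. In males the groups were apart on chow and overlapped on the western diet, where wildtype replicate 24, at 30.8 CPM, lay above 3 of the 4 alzheimer libraries. Female alzheimer libraries held 26.64, 24.32, 26.46 and 31.05 CPM on chow and 33.43, 29.41 and 32.55 on the western diet. Female wildtype libraries held 15.31, 20.9, 19.28 and 21.97 CPM on chow and 20.18, 20.44 and 19.05 on the western diet. In females every alzheimer library was above every wildtype one. Over both sexes the means were 28.99 ± 5.17 CPM in alzheimer and 20.09 ± 3.68 in wildtype (SD, n = 15 each), a log2 fold change of 0.53 ± 0.075 (SE), or 44.5% higher, with an edgeR adjusted p of 1.08e-05. All 15 alzheimer libraries were above the mean of the wildtype group of their sex and diet.

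The Nos1 difference was called in every stratum: 0.53 on chow (edgeR adjusted p = 0.00258), 0.53 on the western diet (0.0049), 0.48 in males (0.0086) and 0.58 in females (0.00197). In cohort 1 alone the calls on chow and in males were lost. It was 0.49 in cohort 1 alone and 0.59 in cohort 2 alone. Nos1 was called by neither interaction with genotype, -0.0029 ± 0.15 with diet and 0.096 ± 0.15 with sex. Leaving out the highest library of each genotype (replicates 24 and 25) gave 0.55.

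**Figure D1:**
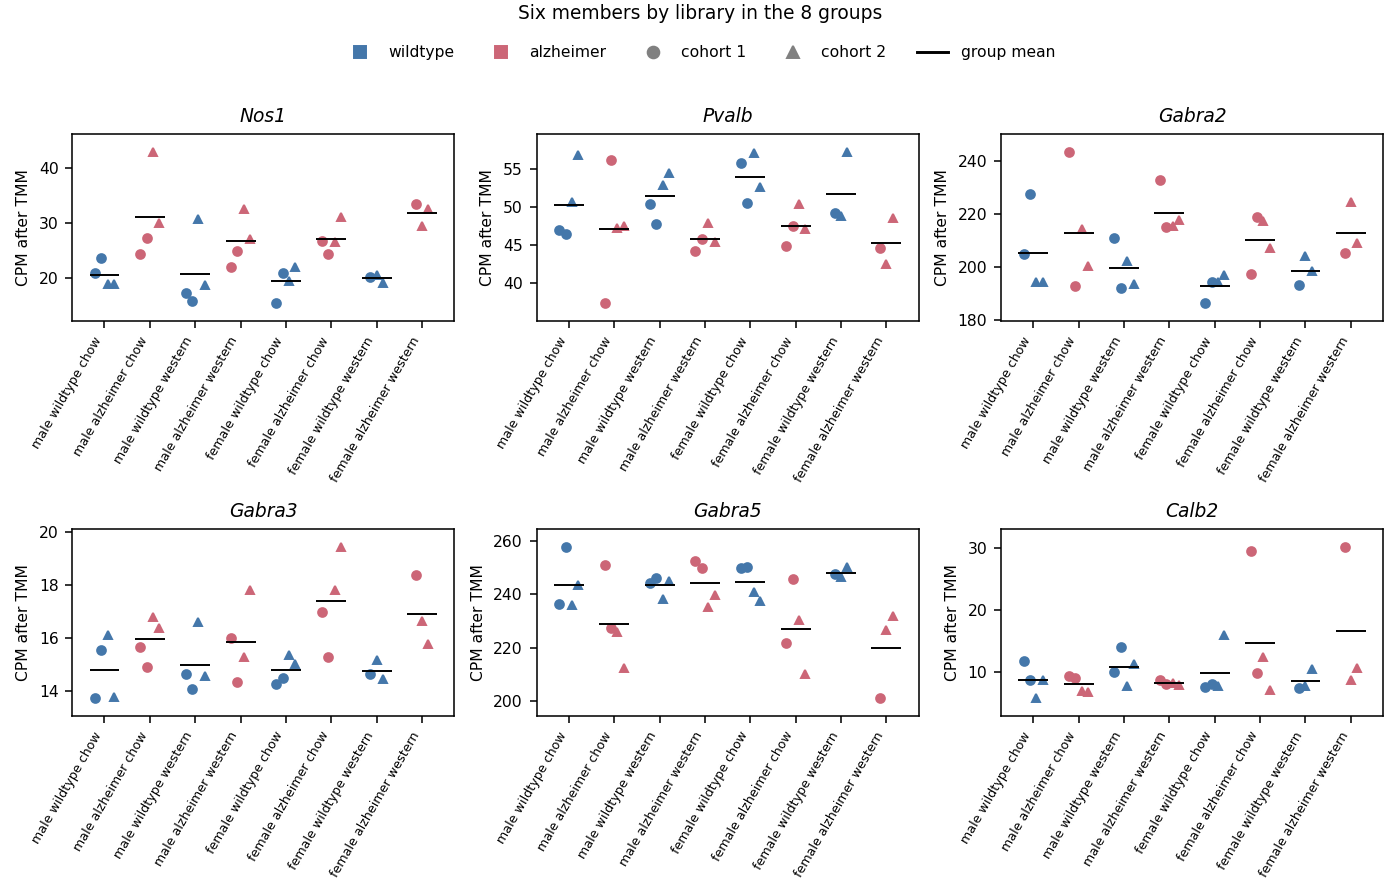
CPM after TMM normalisation of Nos1, Pvalb, Gabra2, Gabra3, Gabra5 and Calb2 (vertical axes, not starting at 0) in each of the 30 libraries by group (horizontal axis); colour gives genotype, circles cohort 1, triangles cohort 2, and bars group means. Alzheimer groups have the higher Nos1 mean at each sex and diet, and 2 female alzheimer libraries stand apart in Calb2.

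Among GABA-A receptor subunits, 2 of 9 rose and 1 fell, with a median log2 fold change of 0.073. Gabra3 encodes the alpha-3 subunit. Its lowest, median and highest values were 14.4, 16.4 and 19.5 CPM in alzheimer and 13.8, 14.6 and 16.6 in wildtype libraries. The ranges overlapped, and 7 alzheimer libraries were above all wildtype ones. Its log2 fold change was 0.16 ± 0.041 (edgeR adjusted p = 0.0149), with 14 of 15 alzheimer libraries above their matched wildtype mean. Gabra2 encodes the alpha-2 subunit, enriched at synapses on the axon initial segment of pyramidal cells. It ran from 192.6 through 215.1 to 243.4 CPM in alzheimer and from 186.3 through 194.3 to 227.7 in wildtype libraries, overlapping over most of the range. Its log2 fold change was 0.10 ± 0.029 (edgeR adjusted p = 0.0203), with 13 of 15 above their matched mean. Without female alzheimer western replicate 18 the Gabra2 adjusted p was 0.0595. In cohorts 1 and 2 alone Gabra2 differed by 0.092 (adjusted p = 0.58) and 0.11 (0.0256), and Gabra3 by 0.16 in both (0.424 and 0.135).

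Gabra5 encodes the alpha-5 subunit, which is abundant in the hippocampus and carries much of the tonic and slow dendritic inhibition of pyramidal cells. It ran from 201.4 through 230.4 to 252.4 CPM in alzheimer and from 235.9 through 244.9 to 257.8 in wildtype libraries, and 10 of the 15 alzheimer libraries were below every wildtype one. The alzheimer libraries were also more spread, with an SD of 15.4 CPM against 6.15. Gabra5 fell by 0.09 on the log2 scale (SE 0.024, edgeR adjusted p = 0.0143). In females the difference was -0.14 (adjusted p = 0.0236) and in males -0.041 (0.649), but the genotype by sex difference itself, -0.099, had an adjusted p of 0.999. Gabra5 differed by -0.10 (0.302) in cohort 1 alone and -0.099 (0.0409) in cohort 2 alone. Both Gabra3 and Gabra5 lost their calls without the pair of libraries that stand apart in Calb2 (replicates 10 and 11): 0.13 with an adjusted p of 0.0601, and -0.065 with 0.0682. They also lost them without the 3 libraries highest in choroid plexus markers, with adjusted p-values of 0.0696 and 0.0662; these include replicate 11.

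The other GABA-A members did not pass. Gabra4, whose alpha-4 subunit joins delta in receptors outside the synapse of dentate granule cells, came nearest. It was at 93.2 ± 6.54 CPM in alzheimer and 88.2 ± 6.09 in wildtype libraries (0.086 ± 0.029, edgeR adjusted p = 0.066). Gabra4 passed when replicate 6, 13, 27 or 30 was left out, and without the 3 libraries highest in choroid plexus markers (edgeR adjusted p = 0.0472). Gabrd, the delta subunit, was at 45.1 ± 3.70 and 47.0 ± 3.55 CPM, -0.046 on the log2 scale. The beta subunit genes Gabrb1 and Gabrb2 stood at -0.010 and 0.073, and the gamma subunit gene Gabrg1 at -0.018. Gabrg3, another gamma subunit gene, had few counts, 1.61 ± 0.405 against 1.31 ± 0.288 CPM, and its 0.28 had an interval of -0.0072 to 0.57. Gabrb1, Gabra4, Gabra2 and Gabrg1 lie close together on chromosome 14 of GRCr8, in that order with 1 protein-coding gene between Gabra4 and Gabra2, and only Gabra2 of these 4 was called between genotypes.

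The GABA-B subunits gave no call. Gabbr1, which binds GABA, was at 1448 ± 54.8 and 1458 ± 60.2 CPM in alzheimer and wildtype libraries, and Gabbr2, which couples to the G protein, at 542.8 ± 15.9 and 523.3 ± 21.2 (0.052, edgeR adjusted p = 0.12). Gphn encodes gephyrin, the scaffold under inhibitory synapses, and differed by 0.017 with an interval of -0.03 to 0.063. These 3 were the members least spread between libraries, with residual SDs of 0.0583, 0.0544 and 0.0565 on the log2 scale.

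None of the 5 genes of GABA synthesis and removal was called between genotypes, and their median was 0.022. Gad1 encodes the larger decarboxylase, GAD67, and was at 213.3 ± 9.99 and 210.4 ± 14.01 CPM, a difference of 0.022 with a 95% interval of -0.029 to 0.073. Gad2, the synaptic decarboxylase GAD65, was at 80.1 ± 6.86 and 74.8 ± 7.26 CPM (0.11 ± 0.038, edgeR adjusted p = 0.075). Gad2 passed when replicate 6, 7, 8 or 19 was left out. It also passed with no filter on low counts (edgeR adjusted p = 0.0444) and in cohort 2 alone (0.0465). Slc32a1, the vesicular transporter, was at 0.051, and Abat, the transaminase that breaks GABA down, at -0.011. Slc6a11, the transporter GAT3 found mainly on astrocytes, was at -0.08 (adjusted p = 0.251).

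Of the interneuron markers, Pvalb was the one that fell. Parvalbumin marks fast-spiking basket and axo-axonic cells. Its lowest, median and highest values were 37.4, 47.1 and 56.2 CPM in alzheimer and 46.5, 50.7 and 57.2 in wildtype libraries, so 7 alzheimer libraries lay below every wildtype one while the rest overlapped. Its log2 fold change was -0.16 ± 0.039 (edgeR adjusted p = 0.00882), or -10.5%, and 1 of 15 alzheimer libraries was above its matched wildtype mean. Its sign held in both cohorts, at -0.12 in cohort 1 alone (adjusted p = 0.619) and -0.20 in cohort 2 alone (0.0172). Within strata it was -0.14 on chow, -0.18 on the western diet, -0.13 in males and -0.19 in females, none of them called.

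The peptide markers differed little between genotypes. Sst, somatostatin, was at 87.5 ± 9.54 CPM in alzheimer and 86.1 ± 10.4 in wildtype libraries (0.026 ± 0.055). Vip was at 11.3 ± 1.31 and 11.4 ± 1.33 CPM, and Cck, cholecystokinin, which pyramidal cells also make, at 254.3 ± 17.5 and 257.5 ± 17.3. Npy, neuropeptide Y, is a common interneuron peptide, but its row held 1 to 11 counts per library, 0.0567 to 0.628 CPM, and was not tested. No label or header names the annotation behind that row, and this level belongs to the row and not to the transcript in the tissue. Reln, the extracellular protein reelin, was at 92.1 ± 11.3 and 83.9 ± 7.77 CPM (0.14 ± 0.050, edgeR adjusted p = 0.0816). Without replicates 10 and 11 the Reln difference was 0.076. Reln passed when replicate 6, 7 or 18 was left out, and with no filter on low counts (edgeR adjusted p = 0.0255). Lhx6, a transcription factor of interneurons from the medial ganglionic eminence, and Erbb4, a neuregulin receptor, stood at 0.047 and 0.066.

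**Figure D2:**
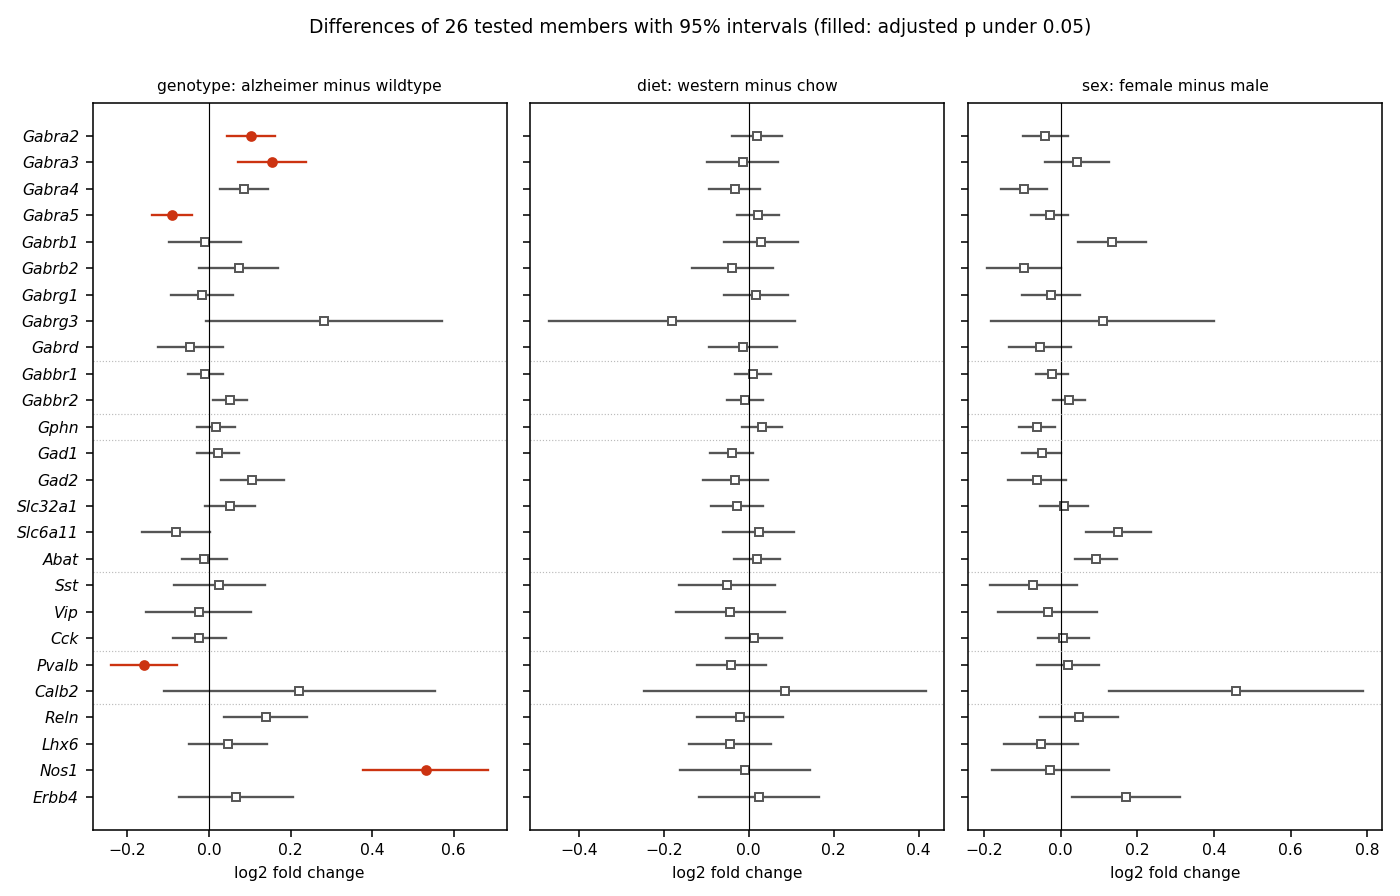
Log2 fold changes (horizontal axis) with 95% intervals of the 26 members tested (vertical axis), by comparison; edgeR fit over all 30 libraries. Nos1 lies farthest to the right of 0 for genotype among the called members, and the wide intervals belong to Gabrg3 and Calb2.

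Calb2 encodes calretinin, a calcium-binding protein of interneuron-selective cells that thalamic and other neurons hold as well. Female alzheimer replicates 10 (chow) and 11 (western) stood at 29.4 and 30.2 CPM, against 5.90 to 15.92 in the other 28 libraries. The summed CPM of 4 thalamus markers was 48.5 and 41.5 in those libraries and 28.02 to 42.1 in the others, with wildtype replicate 5 at 42.1 and a Calb2 level of 14.1. The part of thalamic RNA in the Calb2 values was not tested. Calb2 was not called between genotypes (0.22 ± 0.16, edgeR adjusted p = 0.458), and without these libraries its difference was -0.076. Its female minus male difference of 0.46 ± 0.16 (adjusted p = 0.162) was 0.11 without them.

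**Figure D3:**
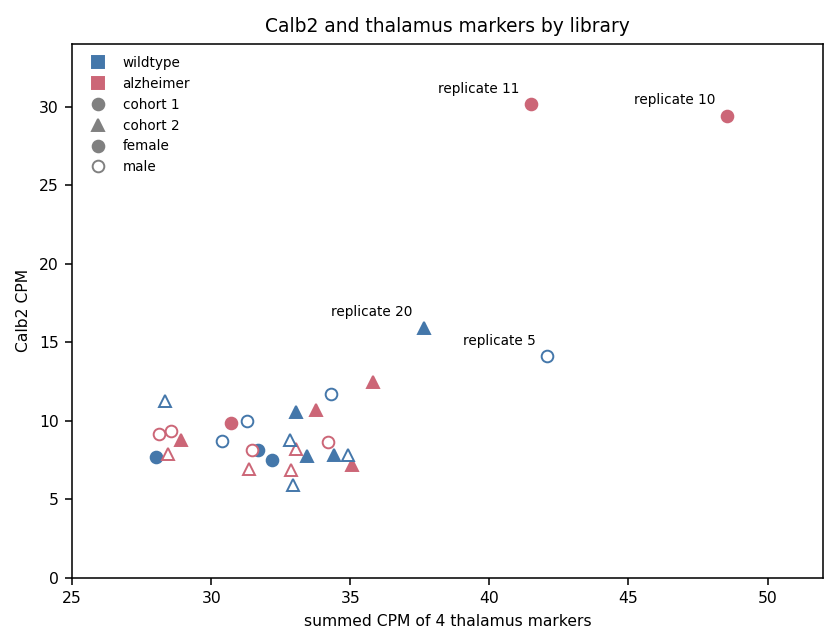
Calb2 CPM (vertical axis) against the summed CPM of 4 thalamus markers (horizontal axis, not starting at 0), 1 point per library; colour gives genotype, shape cohort, and filled points females. Replicates 10 and 11, at 29.4 and 30.2 CPM of Calb2, stand above the other 28 libraries, which reach 15.92.

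Where no call was made, intervals bound the difference. For genotype, 17 of the 21 members not called had a 95% interval within 0.2 of 0 on the log2 scale, the exceptions being Gabrg3, Calb2, Reln and Erbb4. For diet this was so for 24 of 26, all but Gabrg3 and Calb2.

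No member was called for diet, where 0.00797% of all genes tested were. By edgeR 0 of 26 had an unadjusted p under 0.05, and the smallest adjusted p was 0.93. DESeq2 and limma-voom also called 0. No member was called for diet within wildtype, alzheimer, male or female libraries, with backgrounds of 0%, 0%, 0.128% and 0.183%.

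No member was called for sex by edgeR, against 0.837% of all genes tested, while 7 had an unadjusted p under 0.05, or 26.9%, against 14.8% of all genes. Slc6a11 came nearest, at 47.7 ± 3.83 CPM in 14 female and 43.4 ± 4.24 in 16 male libraries (0.15 ± 0.041, adjusted p = 0.0651). DESeq2 and limma-voom each called 1 member, Slc6a11, with adjusted p-values of 0.0332 and 0.0438. Abat was next, at 103.7 ± 6.58 and 97.9 ± 4.91 CPM (0.092 ± 0.027, 0.0844). Gabrb1 was 0.13 and Gabra4 -0.095, female minus male, neither called.

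No member was called for genotype by diet or genotype by sex, where 0% of all genes were, nor for diet by sex, where 1.23% were. Gad2 had the lowest adjusted p for diet by sex, 0.309, at 0.16 ± 0.075. These differences were less precisely measured: intervals lay within 0.2 of 0 for 9, 12 and 9 of 26 members in the 3 interactions. Within strata, the genotype comparison called Nos1 alone on chow, on the western diet and in males, with backgrounds of 0.901%, 3.17% and 1.25%. In females it called Nos1, Gabra3 (0.21) and Gabra5, against 2.57% of all genes; only the Nos1 call was left in cohort 2 alone, without replicate 10, 11, 17, 19 or 22, without replicates 10 and 11 together, or without the 3 libraries highest in choroid plexus markers.

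Lists of further GABA genes were read the same way, against the 8.03% of all genes called for genotype. These lists, and that of other interneuron genes below, were also chosen with earlier results known, so their shares are descriptive. Of 12 other genes of GABA transport and metabolism, Dbi, which encodes a peptide that binds GABA-A receptors, fell by 0.11 in alzheimer libraries, and 1 call in 12 (8.33%) is about the share of all genes. Of 18 genes of receptor trafficking and the inhibitory synapse, Trak2 and Gabarap (11.1%) fell, by 0.14 and 0.089, and Trak2 was higher in females (0.12, edgeR adjusted p = 0.0386). Of 7 genes of chloride balance, which sets the direction of GABA-A currents, the kinase gene Wnk3 rose (0.23) and Oxsr1 fell by 0.17 (28.6%). The sex call of Trak2 held in 12 of the 30 fits that each left out 1 library, and the Wnk3 call was lost without replicate 21 or 22 (adjusted p = 0.0508 and 0.0592). Median log2 fold changes of these 3 lists were -0.049, -0.0043 and -0.033.

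Among 38 other interneuron genes 4 rose and 1 fell between genotypes, 13.2% against 8.03% of all genes. Npy2r, a neuropeptide Y receptor found on hippocampal terminals, rose from 5.85 ± 0.793 to 8.34 ± 0.914 CPM (0.50 ± 0.070, edgeR adjusted p = 9.31e-06), and 14 of the 15 alzheimer libraries were above all wildtype ones. Cnr1, the cannabinoid receptor of cholecystokinin cells, rose by 0.13, as did Elfn1, and Adarb2 by 0.19; the calls of Elfn1 and Adarb2 held in 12 and 11 of the 30 fits that each left out 1 library. In cohort 1 alone Npy2r differed by 0.41 with an adjusted p of 0.0827, and none of the list genes named here for genotype was called. Cort, cortistatin, a peptide related to somatostatin, fell from 3.97 ± 0.843 to 3.04 ± 0.575 CPM (-0.37 ± 0.10, adjusted p = 0.0217), and its adjusted p was 0.0504 without female wildtype western replicate 22.

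Levels also moved together between libraries once group and cohort means were removed. Of 325 pairs of members over 30 libraries, 16 had a permutation p of Pearson's r under 0.05 after Benjamini-Hochberg adjustment over the pairs, 14 with r above 0. In 5 of the 16, Spearman's rho passed as well. The residuals have 21 degrees of freedom, so these p-values are somewhat too small, and TMM scaling is shared by all genes of a library. The 2 farthest libraries left out below are those farthest from the median of the first gene named in each pair. Libraries far out in the second gene may remain. Gad1 and Gad2 rose and fell together (r = 0.661, permutation p = 7e-05, adjusted 0.0076; rho = 0.629, p = 0.00024, adjusted 0.026; r = 0.537 without the 2 farthest libraries, and 0.703 and 0.606 in cohorts 1 and 2).

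Sst and Pvalb did so too (r = 0.612, permutation p = 0.00038, adjusted 0.021; rho = 0.641, p = 0.0002, adjusted 0.026; 0.678 without the 2 farthest; 0.645 and 0.608 by cohort), and with group and cohort means kept in their r was 0.337 (adjusted p = 0.31). Of the pair, Pvalb was called between genotypes and Sst was not; that contrast was not tested. Gad2 moved with Reln (r = 0.696, permutation p = 1e-05, the smallest 100000 permutations can give, adjusted 0.0016; rho = 0.664, p = 0.00013, adjusted 0.026; 0.631 without the 2 farthest; 0.825 and 0.518 by cohort). Abat and Nos1 had the same r of 0.696 (permutation p = 1e-05, adjusted 0.0016; rho = 0.619, p = 0.00044, adjusted 0.036; 0.629 without the 2 farthest; 0.644 and 0.747 by cohort), but 0.19 (adjusted p = 0.66) when group and cohort means were kept in. Gabra2 and Pvalb moved in opposite directions (r = -0.625, permutation p = 0.00029, adjusted 0.019), but rho was -0.39 (p = 0.036, adjusted 0.24), r without the 2 farthest was -0.473, and the cohorts gave -0.687 and -0.449. With either cohort alone no pair passed the adjustment.

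**Figure D4:**
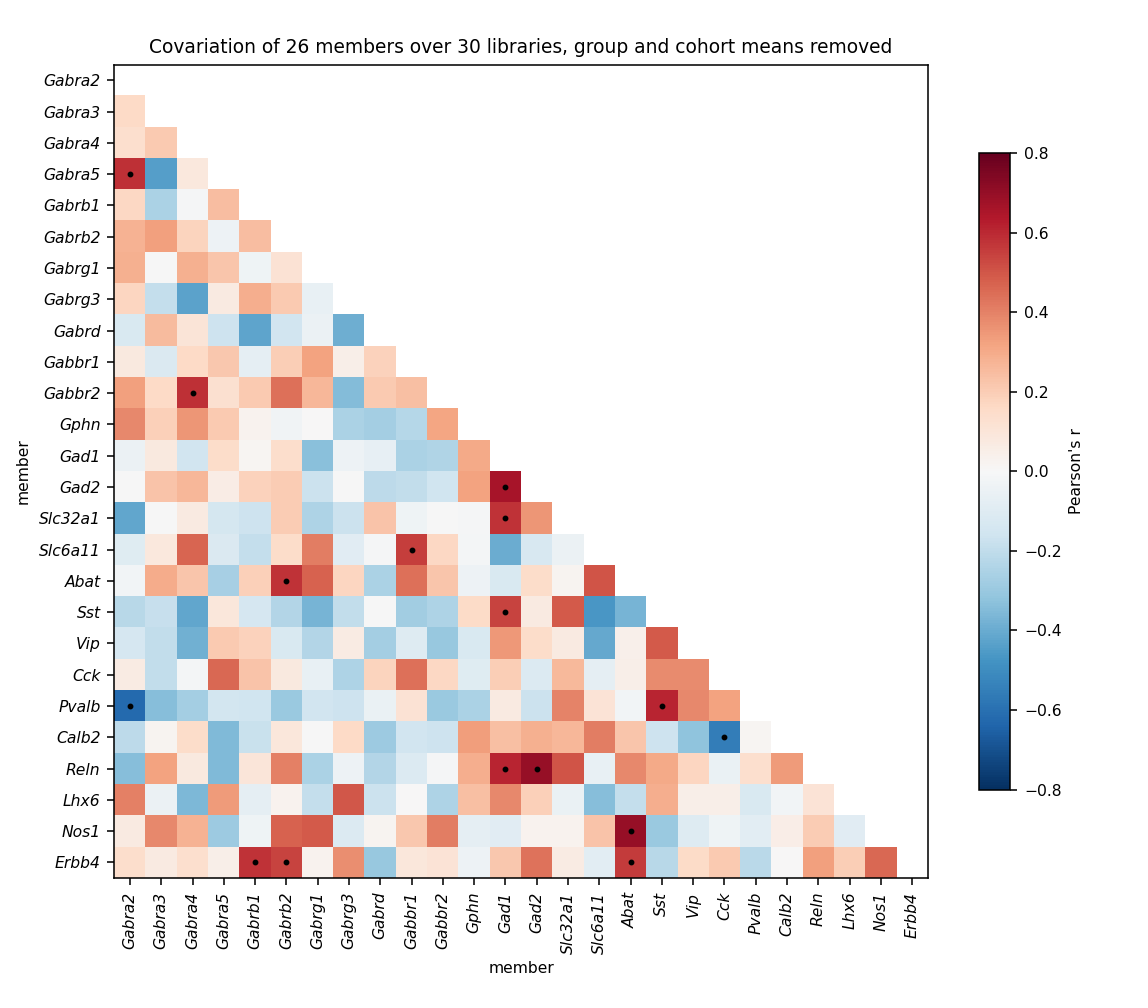
Pearson's r (colour) between the 26 members tested (both axes) over 30 libraries, after group and cohort means were removed; dots mark the 16 pairs with an adjusted p under 0.05. Of the marked pairs 14 are positive.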

How the data were processed

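RNA was measured in 30 libraries of dorsal hippocampus. Per the labels' protocols, RNA was extracted with a lipid tissue kit, polyadenylated RNA was selected and libraries were made with the NEB Ultra II kit. Per the submitters' processing notes, cutadapt and STAR 2.7.0a were used; for the counting tool, strandedness, build and gene models the answer is: not given in the sources used here. The authors deposited raw read counts per gene, 13.9 to 31.4 M (mega) per library, and rows of few counts such as Npy and Gabrg3 carry more counting error.

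Counts were fitted with edgeR 4.0.16 (R 4.3.3, TMM, quasi-likelihood test) with a term per group and for cohort, over all 30 libraries. filterByExpr (minimum count 10, minimum total 15) kept 12547 of 17455 genes, over which p-values were adjusted (Benjamini-Hochberg, threshold 0.05). Genotype, diet and sex effects average the groups with equal weight, and strata come from the same fit. The fit was tested on simulated data. No pair of libraries within a group agreed within sampling noise (smallest chi-square per degree of freedom 2.94 of 42 pairs). Residual correlations used log2 CPM with a prior count of 2.

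The members and all lists were chosen with earlier results of these data known. Members were named by role, list genes where called, and results for some list genes are not reported here. GRCr8 tables gave gene order and promoters. Alternatives were median-of-ratios size factors, no filter, 1 CPM in 8 libraries, DESeq2 1.42.0, limma-voom (limma 3.58.1), no cohort term, each cohort alone and leaving out each library; 3 more, chosen after seeing the data, left out the 2 libraries highest in Calb2, the library highest in Nos1 of each genotype, or the 3 highest in choroid plexus markers.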

Additional observations from a re-analysis of the deposited data

Results flagged for a closer look

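In groups of 4 libraries, 7 of 162 combinations of member and group had a library far from the rest; chance flags about 1 in 20. Gabra2 stood at 232.7 CPM in male alzheimer western replicate 1, against 215.1 to 217.7 in the others. Gabra4 was at 86.27 CPM in male wildtype chow replicate 29, against 95.54 to 96.74. Slc32a1 was at 105.9 CPM in female wildtype chow replicate 9 (others 97.74 to 98.64) and at 92.51 in male wildtype western replicate 24 (others 97.15 to 97.41). Npy, a row of few counts, was at 0.3527 CPM in male wildtype western replicate 27, against 0.2261 to 0.2444. Calb2 was at 15.92 CPM in female wildtype chow replicate 20, against 7.682 to 8.14, and Reln at 93.95 in female wildtype chow replicate 13, against 79.53 to 81.93.

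The effect of the western diet differed between the sexes for 2 list genes by edgeR's interaction test. Slc38a2, a glutamine transporter gene, had a difference of 0.2641 (SE 0.053, adjusted p = 0.00626): 0.21 in females and -0.059 in males. Npy1r, a neuropeptide Y receptor gene, had a difference of 0.4424 (SE 0.098, adjusted p = 0.0157): 0.29 in females and -0.15 in males, neither called within a sex. Without the 3 libraries highest in choroid plexus markers the Npy1r adjusted p was 0.0549. In cohorts 1 and 2 alone the Slc38a2 difference was 0.32 and 0.24, and that of Npy1r 0.39 and 0.51. For cohort 1 alone, where each female western group has 1 library, only the size of the difference is given. Neither gene was called in cohort 2 alone (edgeR adjusted p = 0.236 for Slc38a2 and 0.186 for Npy1r).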

How the results depend on the processing

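A count of calls has no direction, so only its size could change. For single genes, direction was judged only where a call was made, and some members not called changed sign. The Calb2 genotype difference, 0.22 in the main fit, ran from -0.14 to 0.67 over the alternatives other than leaving out each library. The genotype count of 5 members was 1 in cohort 1 alone (Nos1), 3 without the 2 libraries highest in Calb2, and 5 to 8 when each library was left out, with 8 without male alzheimer western replicate 6. The sex count of 0 was 2 with no filter, 1 with DESeq2, 1 with limma-voom, 2 without the library highest in Nos1 of each genotype, and 0 to 2 with each library left out (1 without replicate 1, 2 without 9 or 25). Genotype on the western diet, 1 member, gave 4 with no filter, 4 with DESeq2, and 1 to 3 with each library left out (3 without replicate 6 or 8, 2 without 1, 3, 4, 5, 7, 10, 19 or 27). Genotype by sex, 0, gave 1 in cohort 1 alone (Calb2, where each female western group has 1 library). Genotype on chow and in males, 1 each, gave 0 and 0 in cohort 1 alone and 1 to 2 with each library left out (2 without replicate 8). Genotype in females, 3, gave 1 in cohort 2 alone, 1 without the libraries highest in Calb2, 1 without those highest in choroid plexus markers, and 1 to 4 with each library left out (1 without replicate 10, 11, 17, 19 or 22). Of 16 covarying pairs, 0 passed in cohort 1 alone and 0 in cohort 2 alone. Single cohorts hold fewer samples; otherwise the cause was not tested. No paired analysis was possible because every library has its own running number, so groups share no replicate numbers; cohort is a term of the fit. In the genotype comparison over both sexes and diets, Nos1 was called under all alternatives run, with log2 fold changes of 0.49 to 0.59. Few counts limit Npy and Gabrg3.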
